A study of Mus musculus with 2 samples.

Results

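The genes described here are 32 regulators of chromatin and DNA methylation, taken as a named list and not by any measured value: 3 DNA methyltransferases, 3 TET dioxygenases, 10 histone deacetylases, 10 histone methyltransferases or relatives of them, 4 histone demethylases and the acetyltransferases CBP and p300. All 32 were among the 19575 genes of the deposited count table. They were followed across inhibitory, excitatory and glia-like nuclei of 2 single-nucleus libraries, made from GFP-sorted nuclei of the lumbar (L3-L5) dorsal spinal cord of adult mice carrying Pdyn-IRES-Cre(+/-) and R26-LSL-Sun1.eGFP(+/-). Cre under the prodynorphin gene marks the nuclear envelope of cells that express Pdyn or once did, so the sort keeps a lineage and not only current dynorphin neurons. The injured library pooled 8 mice whose left plantar hindpaw was incised at postnatal day 3, and the naive library pooled 8 littermates given isoflurane alone at that age. Both pools held mice of either sex.

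DNA methyltransferases write 5-methylcytosine and TET enzymes oxidise it, while histone acetyltransferases, deacetylases, methyltransferases and demethylases add or remove marks on histone tails that accompany active or silent genes. Class IIa deacetylases have little catalytic activity of their own. They shuttle between nucleus and cytoplasm with neuronal activity and bind MEF2 transcription factors. In postmitotic neurons Dnmt3a is the main writer of methylation outside CpG sites, and Dnmt3b is a largely embryonic enzyme.

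The naive library held 4063 nuclei with 30602222 UMIs (unique molecular identifiers, 1 per captured RNA molecule) and the injured library 3547 nuclei with 32934588, at medians of 6955 and 8464 UMIs per nucleus. The injured median was 1.22 times the naive one, and 3 barcode sequences occurred in both libraries. Of 28 clusters, 2 that mixed transmitter genes were split once more. Clusters with inhibitory transmitter genes at 10 or more times the CPM of Slc17a6, an excitatory transmitter gene, made 2570 naive and 2166 injured inhibitory-like nuclei, and those with Slc17a6 at 4 or more times the inhibitory genes made 913 and 796 excitatory-like nuclei. Astrocyte-like nuclei numbered 52 and 47 and oligodendrocyte-like nuclei 42 and 45; the astrocyte-like cluster scored nearly as high for ependymal markers, 4.56 against 4.95. A cluster that met no naming rule, or whose top 10 genes favoured some other marker list, stayed unnamed (348 naive and 413 injured nuclei). With 1 pooled library per group there is no test between injured and naive: a level is a gene's UMIs per 1000000 UMIs (CPM) over the summed nuclei of a class, and every interval is an exact 95% one that covers counting error only. Pooling, mice and handling cannot be told apart from the injury.

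Both promoter windows listed for Hdac9 and the one listed for Hdac4, another class IIa member, are shown because Hdac9 was the regulator whose level differed most between clusters. Each window holds 250 bases before and 50 after an annotated start, read 5′ to 3′ on the gene's strand, from RefSeq on GRCm38.p6, with every CpG in capitals. The Hdac9 windows lie at chr12:34917046-34917345 and chr12:34528840-34529139 and the Hdac4 window at chr1:92180292-92180591, all on the minus strand.
Hdac9, first start: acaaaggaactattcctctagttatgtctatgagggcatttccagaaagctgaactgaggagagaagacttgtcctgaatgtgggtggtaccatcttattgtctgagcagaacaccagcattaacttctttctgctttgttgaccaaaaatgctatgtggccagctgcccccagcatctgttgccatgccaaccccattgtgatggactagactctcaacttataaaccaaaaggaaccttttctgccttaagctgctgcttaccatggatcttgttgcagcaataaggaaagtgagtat
Hdac9, inner start: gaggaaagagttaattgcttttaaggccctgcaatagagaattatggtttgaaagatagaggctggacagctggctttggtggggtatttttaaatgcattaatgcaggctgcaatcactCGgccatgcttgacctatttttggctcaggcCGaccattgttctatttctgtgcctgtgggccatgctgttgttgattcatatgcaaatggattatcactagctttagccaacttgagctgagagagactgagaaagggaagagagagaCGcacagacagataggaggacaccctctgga
Hdac4: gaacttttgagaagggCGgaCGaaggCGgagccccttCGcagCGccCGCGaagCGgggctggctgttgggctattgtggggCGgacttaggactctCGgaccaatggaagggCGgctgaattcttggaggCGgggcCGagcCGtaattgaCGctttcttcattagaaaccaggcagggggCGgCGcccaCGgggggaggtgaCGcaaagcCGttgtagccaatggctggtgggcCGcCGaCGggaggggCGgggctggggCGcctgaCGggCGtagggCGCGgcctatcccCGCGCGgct
The first Hdac9 window held 0 CpGs and the inner one 3, against 32 in the Hdac4 window and a median of 7 over all 32851 windows of 300 bases. Few CpGs were not particular to Hdac9: a Kdm4c window held 0, the Setd5 window 1, a Dnmt1 window 2 and 2 of the 4 Hdac7 windows 5 and 6. Of the 26 regulators with a window, 20 had only 1. The GC box GGGCGG, searched on both strands, was in 35.7% of all windows, 5 times in the Hdac4 window and in neither Hdac9 window. Methylation itself was not measured in these libraries.

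The regulators spanned a wide range of levels, and the order was alike in inhibitory-like and excitatory-like nuclei. Levels of different genes are compared only per kb of gene, on the assumption that longer genes give more UMIs from nuclear RNA. That assumption was not tested, and whether introns were counted is not given in the sources used here. In naive inhibitory-like nuclei Kmt2a, an H3K4 methyltransferase, stood highest at 4.27 CPM per kb, followed by Kmt2e, a relative without established methyltransferase activity, at 3.55 and Hdac11, the class IV deacetylase, at 3.19. In the injured library these 3 gave 3.90, 3.41 and 2.83 CPM per kb. Dnmt3b was lowest at 0.037 and 0.020 CPM per kb, and Hdac9, whose gene is 870 kb long, was next at 0.12 and 0.16. The low rank of Hdac9 rests on that length, as it was at 101 and 136 CPM before the division. Apart from Dnmt3b, the share of inhibitory-like nuclei with a UMI ran from 11.8% (Dnmt1) to 87.2% (Kmt2a) in the naive library and from 13.3% (Kmt2d) to 89.7% (Kmt2a) in the injured one. Those shares are not compared between libraries, because the injured nuclei held more UMIs.

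**Figure D1:**
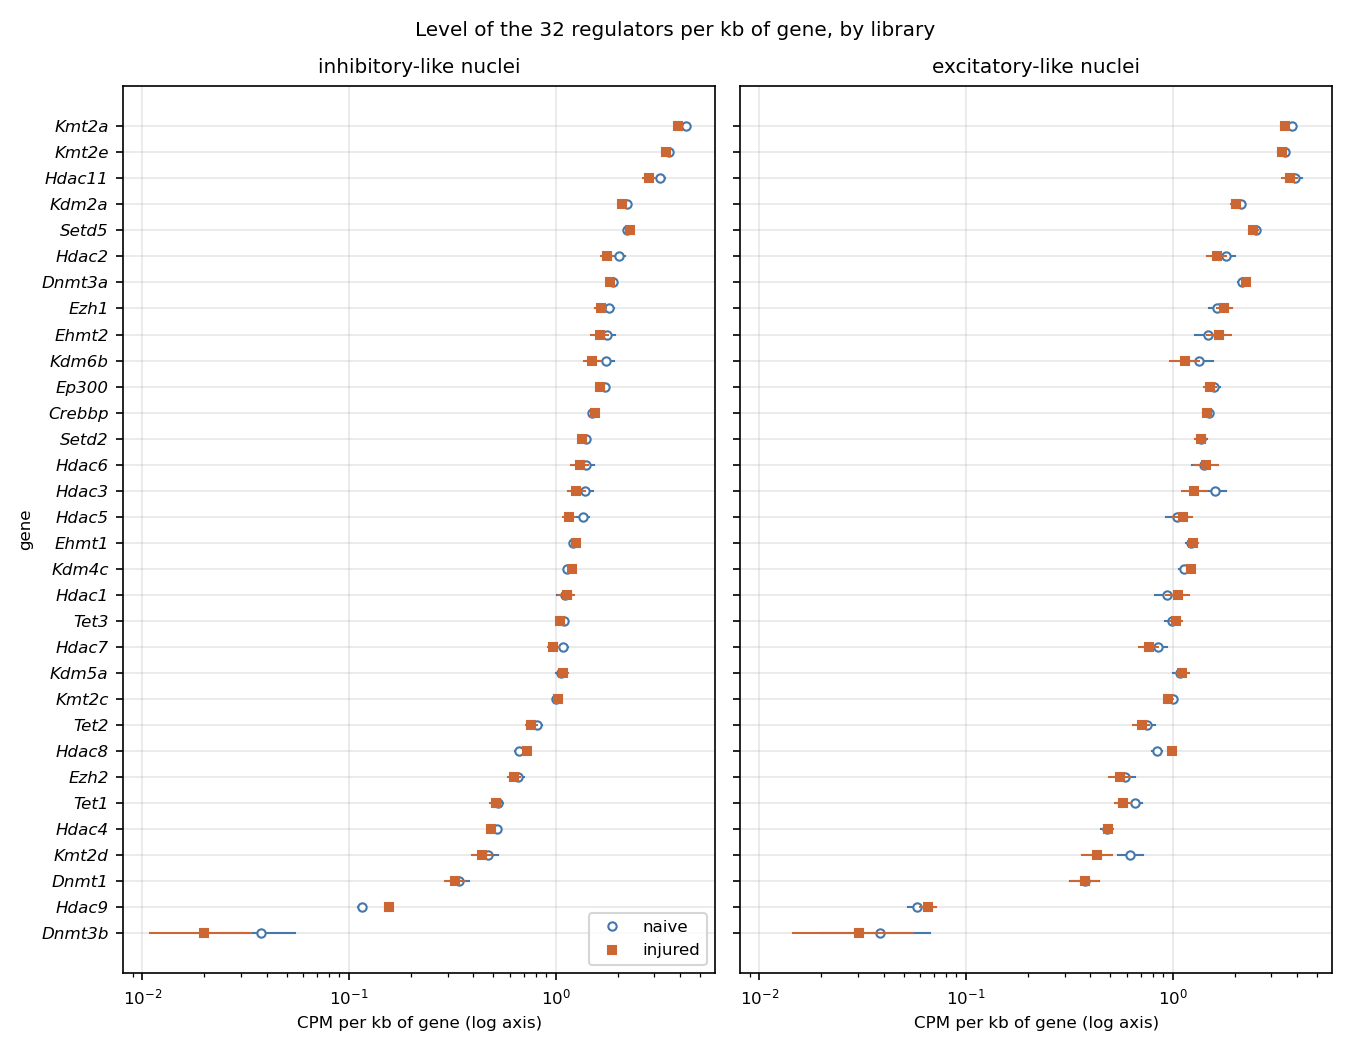
Level of each of the 32 regulators as CPM per kb of gene (log axis) in inhibitory-like and excitatory-like nuclei, with naive as open circles, injured as filled squares and lines for the exact 95% counting intervals. Kmt2a, Kmt2e and Hdac11 are at the top and Dnmt3b and Hdac9 at the bottom in both classes.

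Between the libraries, most regulators of inhibitory-like nuclei differed little. A gene was read where a class held 100 UMIs of it or more, both libraries together, and a log2 ratio of 0.32 either way served as a mark of size, not a test. Of the 31 regulators read here, 30 lay within that mark and 1, Hdac9, lay past it, against 14.4% of all 12732 genes (1.98% past it in the higher and 12.5% in the lower direction). The median log2 ratio of injured over naive was -0.07 for the regulators and -0.08 for all genes, with 22 regulators below 0. That split rests on the scale: 71.0% of the regulators were below 0 as scaled to total UMIs, and 41.9% after centring on the median of all genes, a shift of 0.08. Counting intervals left out 1 for 13 regulators, 3 higher in the injured library and 10 lower, where 7.23% of all genes had an interval above 1 and 24.7% one below. The 3 higher ones were Hdac9, Hdac8 and Kdm4c, a demethylase of H3K9 and H3K36. The 10 lower ones were Hdac2, Hdac4, Hdac5, Hdac7, Hdac11, Ezh1, Kmt2a, Kmt2e, Kdm2a and Kdm6b. Their ratios lay between 0.857 (Hdac5) and 0.959 (Kmt2e). The log2 ratio of Kmt2e turned to 0.023 after centring and 0.035 with nuclei thinned to 3000 UMIs. Centring raises every log2 ratio of the class by 0.08. Intervals were not taken again on that scale, so these 3 and 10 hold only for scaling to total UMIs.

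In excitatory-like nuclei 29 of 31 regulators lay within the same mark, and both of the others, Kmt2d and Hdac3, were lower in the injured library, against 15.7% of 11088 genes past it, 1.92% higher and 13.8% lower. The regulators' median log2 ratio was -0.04 and that of all genes -0.08. Below 0 were 51.6% of the regulators as scaled and 32.3% after centring. Intervals left out 1 for 6 regulators, with Hdac8 and Kdm4c above and Tet1, Hdac3, Kmt2a and Kmt2d below; 6.3% of all genes had an interval above 1 and 17% one below. Hdac8, Kdm4c and Kmt2a were thus the 3 regulators whose intervals left out 1 the same way in both neuron classes, as did 14.1% of 10948 genes, and none did so in opposite ways, as did 0.292%.

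**Figure D2:**
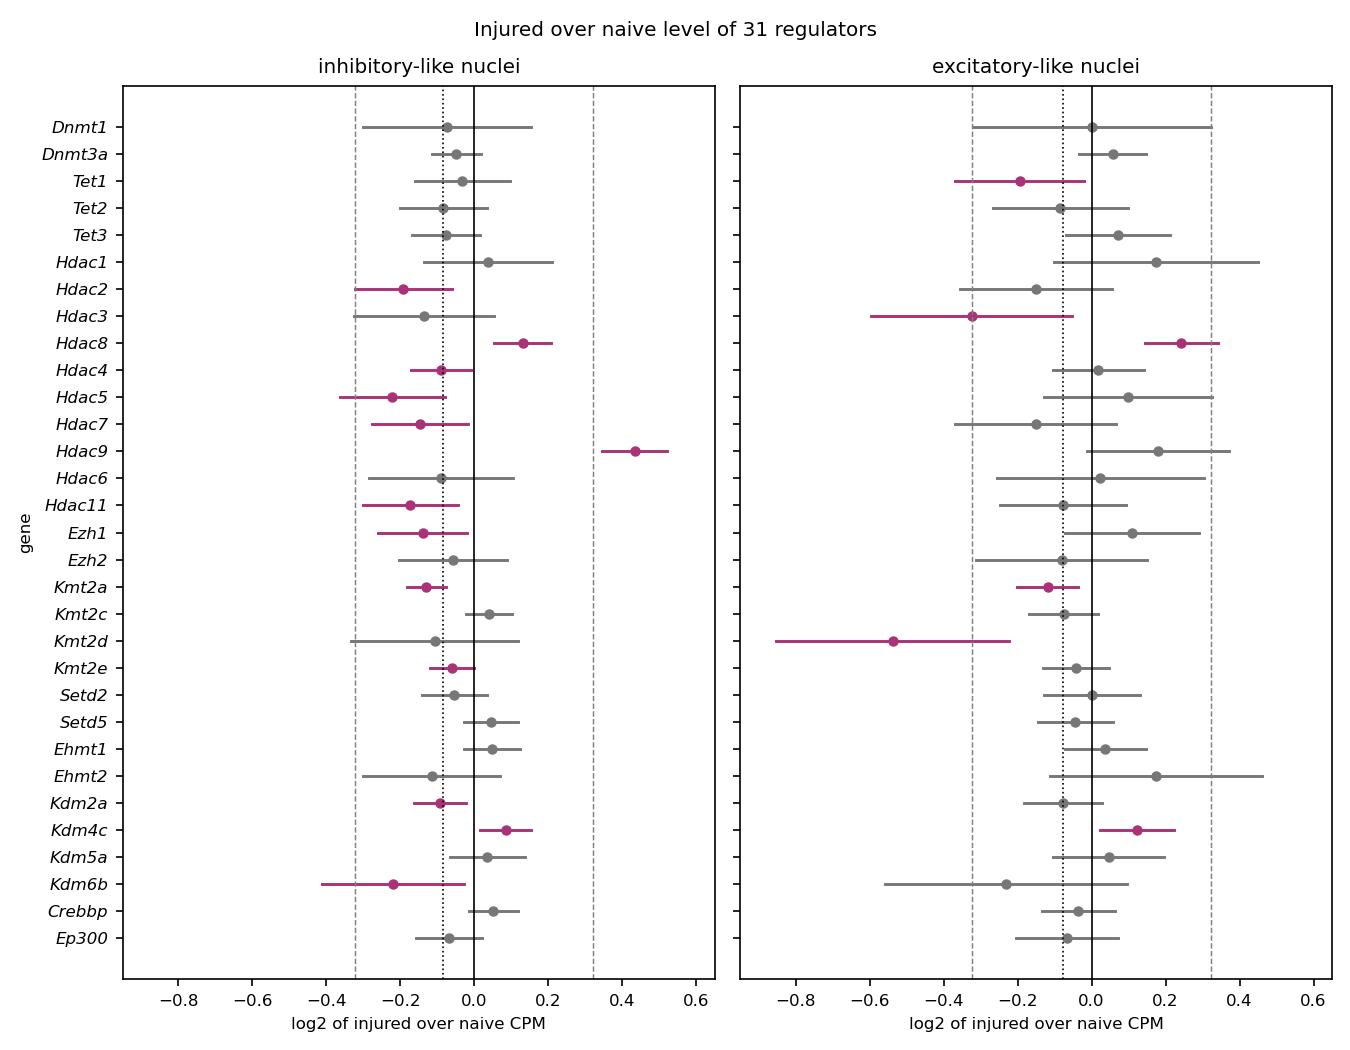
Log2 ratio of injured over naive CPM for 31 regulators in inhibitory-like and excitatory-like nuclei, with exact 95% counting intervals. Purple marks intervals that leave out 0, dashed lines mark a log2 ratio of 0.32 either way and the dotted line the median of all genes; Hdac9 is the regulator past the dashed lines in inhibitory-like nuclei, and Kmt2d and Hdac3 in excitatory-like nuclei.

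Among the DNA methyltransferases, Dnmt3a gave the most UMIs in both neuron classes, not scaled to gene length. It had 3730 naive and 3634 injured UMIs in inhibitory-like nuclei, 205 and 198 CPM, injured over naive 0.967 (0.924 to 1.01). In excitatory-like nuclei it stood at 235 and 244 CPM, which put the ratio at 1.04 (0.977 to 1.11). The interval held 1 in both classes, while the excitatory-like level was above the inhibitory-like one in both, by 1.15-fold (1.08 to 1.21) and 1.23-fold (1.17 to 1.30). Dnmt1, the maintenance enzyme, was at 18.0 and 17.1 CPM in inhibitory-like nuclei, an injured over naive ratio of 0.95 (0.811 to 1.11). In excitatory-like nuclei Dnmt1 was at 19.8 CPM in both libraries, and its interval held 1. Dnmt3b had 26 and 14 UMIs in inhibitory-like and 12 and 10 in excitatory-like nuclei, too few to compare.

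The TET genes, whose products start the removal of methylation, were ordered Tet3, Tet2, Tet1 per kb in inhibitory-like nuclei, at 1.10, 0.81 and 0.52 CPM per kb in the naive library and 1.05, 0.76 and 0.51 in the injured one. In inhibitory-like nuclei the injured over naive ratios were 0.978 (0.894 to 1.07) for Tet1, 0.944 (0.869 to 1.02) for Tet2 and 0.949 (0.890 to 1.01) for Tet3. All 3 intervals held 1. In excitatory-like nuclei Tet1 went from 68.7 CPM (559 UMIs) to 60.0 CPM (518 UMIs), injured over naive 0.874 (0.774 to 0.987). The same Tet1 ratio was 0.983 among excitatory-like nuclei with Xist and no Y-linked UMI and 0.666 among those with Y-linked and no Xist UMI. Tet2 at 61.1 and 57.6 CPM and Tet3 at 95.9 and 101 CPM had intervals that held 1, at ratios of 0.943 (0.831 to 1.07) and 1.05 (0.953 to 1.16).

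The class I deacetylases, nuclear enzymes that act mostly within corepressor complexes, did not move together. Hdac8, which is X-linked and also deacetylates the cohesin subunit SMC3, was higher in the injured library in both neuron classes. It went from 146 CPM (2657 UMIs) to 160 CPM (2930 UMIs) in inhibitory-like nuclei, which put the ratio at 1.09 (1.04 to 1.15). In excitatory-like nuclei it went from 186 to 220 CPM, an injured over naive ratio of 1.18 (1.11 to 1.27). The injured level was the higher in 8 of 10 inhibitory-like and 5 of 6 excitatory-like clusters with at least 50 nuclei per library. Because the pools held both sexes, the ratio was also taken within nuclei carrying Xist and no Y-linked UMI and within those with the reverse. In inhibitory-like nuclei these ratios were 1.09 (1.02 to 1.17) and 1.07 (0.967 to 1.18). In excitatory-like nuclei they were 1.18 (1.09 to 1.29) and 1.13 (0.989 to 1.30). The interval of the Y-linked set held 1 in both classes. A noncoding gene, Gm14858, overlaps 80.9 kb of Hdac8 on the other strand; whether the counting used strand is not given in the sources used here.

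Hdac3, the catalytic subunit of the NCoR and SMRT complexes, was at 30.6 CPM (249 UMIs) in naive and 24.5 CPM (211 UMIs) in injured excitatory-like nuclei, injured over naive 0.799 (0.662 to 0.964). That log2 ratio, -0.32, lay just past the mark, and was -0.25 after centring and -0.30 with every nucleus given the same weight, both within it. In inhibitory-like nuclei it was at 26.6 and 24.2 CPM, with an interval that held 1 (0.798 to 1.04). Hdac2 was at 55.5 and 48.6 CPM in inhibitory-like nuclei, which put the ratio at 0.875 (0.799 to 0.959), while Hdac1, its close paralog, was at 29.4 and 30.2 CPM, an injured over naive ratio of 1.03 (0.909 to 1.16). In excitatory-like nuclei the intervals of both Hdac1 and Hdac2 held 1.

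Hdac9 stood apart from the other class IIa deacetylases. In inhibitory-like nuclei it went from 101 CPM (1828 UMIs) in the naive to 136 CPM (2487 UMIs) in the injured library, injured over naive 1.35 (1.27 to 1.44). In excitatory-like nuclei it was at 50.2 CPM (408 UMIs) and 56.8 CPM (490 UMIs), which put the ratio at 1.13 (0.991 to 1.29). Hdac4, Hdac5 and Hdac7 were slightly lower in injured inhibitory-like nuclei, as were 69.7% of all genes read there. Their log2 ratios were -0.09, -0.22 and -0.15, beside a median of -0.08 for all genes. Hdac4 was at 139 and 131 CPM, an injured over naive ratio of 0.940 (0.888 to 0.994). Hdac5 was at 48.5 and 41.6 CPM, injured over naive 0.857 (0.777 to 0.946). Hdac7 was at 56.0 and 50.6 CPM, which put the ratio at 0.904 (0.826 to 0.989). In excitatory-like nuclei the same 3 genes had intervals that held 1, Hdac4 at 128 and 130 CPM, Hdac5 on 304 and 345 UMIs and Hdac7 at 44.1 and 39.8 CPM.

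The inhibitory-like Hdac9 ratio was 1.27 among nuclei with Xist and no Y-linked UMI and 1.48 among those with the reverse. The excitatory-like ratio in the same sets was 1.08 (0.912 to 1.28) and 1.58 (1.19 to 2.12), the second past the mark of size. Nuclei with at least 5 Hdac9 UMIs were 79 of 2570 naive inhibitory-like nuclei, 3.07% (2.44% to 3.82%), and 151 of 2166 injured ones, 6.97% (5.93% to 8.13%). These nuclei held 29.3% and 46.1% of the class's Hdac9 UMIs, and the most in 1 nucleus was 16 and 35. That count is not corrected for depth. After every nucleus was thinned to 1500 UMIs, which left out 5 nuclei per library, a Hdac9 UMI was found in 12.1% (10.9% to 13.5%) of naive and 15.3% (13.8% to 16.9%) of injured inhibitory-like nuclei. Unthinned, the shares were 30.4% and 39.2%. In oligodendrocyte-like nuclei the thinned shares were 13.5% (4.54% to 28.8%) and 9.09% (2.53% to 21.7%), on 37 and 44 nuclei, and in astrocyte-like nuclei 4.44% and 4.26%. The oligodendrocyte-like intervals held the inhibitory-like shares, so a share of nuclei with a Hdac9 UMI is not read here as a share of expressing nuclei.

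Across clusters, made without any of the 32 genes among the variable genes, Hdac9 was strongly uneven. It ran from 10.0 CPM in cluster 4 to 325 CPM in cluster 11 among the 10 inhibitory-like clusters with at least 50 nuclei per library, a naive range of 32.4-fold, and from 9.91 to 456 CPM in the same clusters of the injured library, 46.0-fold. Clusters 11 (led by Tac2 and Adamts9), 5 (Rspo3, Prkcd), 12 (Id2, Nppc), 9 (Fbxl7, Nxph2) and 3 (Mlxipl, Gucy2d) were all above 160 CPM in both libraries, and the other 5 of these 10 clusters were all below 50 CPM. Those 5 high clusters, grouped after their values were seen, held 36.3% of naive and 40.4% of injured inhibitory-like nuclei but 82.1% and 83.8% of the class's Hdac9 UMIs. No other regulator had 1 cluster that was highest in both libraries and past 2-fold over the mean of the inhibitory-like clusters in each, a mark that 8.56% of 12462 genes passed. In excitatory-like clusters too Hdac9 was the 1 regulator of 31 past it, against 3.68% of 10818 genes, with cluster 19 (Tac1, Cck, Bdnf) highest at 114 and 156 CPM.

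Within clusters, the injured level of Hdac9 was above the naive one in 8 of 10 inhibitory-like clusters, and intervals left out 1 in 3. Cluster 11 went from 325 (292 to 361) to 456 (418 to 496) CPM, an injured over naive ratio of 1.4 (1.22 to 1.61). Cluster 12 went from 267 (234 to 302) to 388 (352 to 428) CPM, injured over naive 1.46 (1.24 to 1.72). In both of these clusters the intervals of the libraries did not overlap. Cluster 0 (Pde11a, C1ql3) went from 19.2 to 30.9 CPM, which put the ratio at 1.61 (1.16 to 2.24). In the high cluster 5 the ratio was 1.06 (0.930 to 1.20), and its interval held 1. No cluster had an interval below 1. Over the 5 high clusters together the ratio was 1.22 (1.14 to 1.31), and over all other inhibitory-like nuclei 1.31 (1.13 to 1.52); both were below the ratio of the whole class. The other nuclei include the small cluster 23 (Cartpt, Alk), with 19 naive and 40 injured nuclei at 353 and 300 CPM, and without it their ratio was 1.18 (1.002 to 1.391). With each cluster of at least 20 nuclei per library weighted alike in the naive and the injured library, the log2 ratio of the class went from 0.43 to 0.28, within the mark of 0.32. Smaller clusters, cluster 23 among them, were left out of that setting, so its value joins the weighting with their removal.

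**Figure D3:**
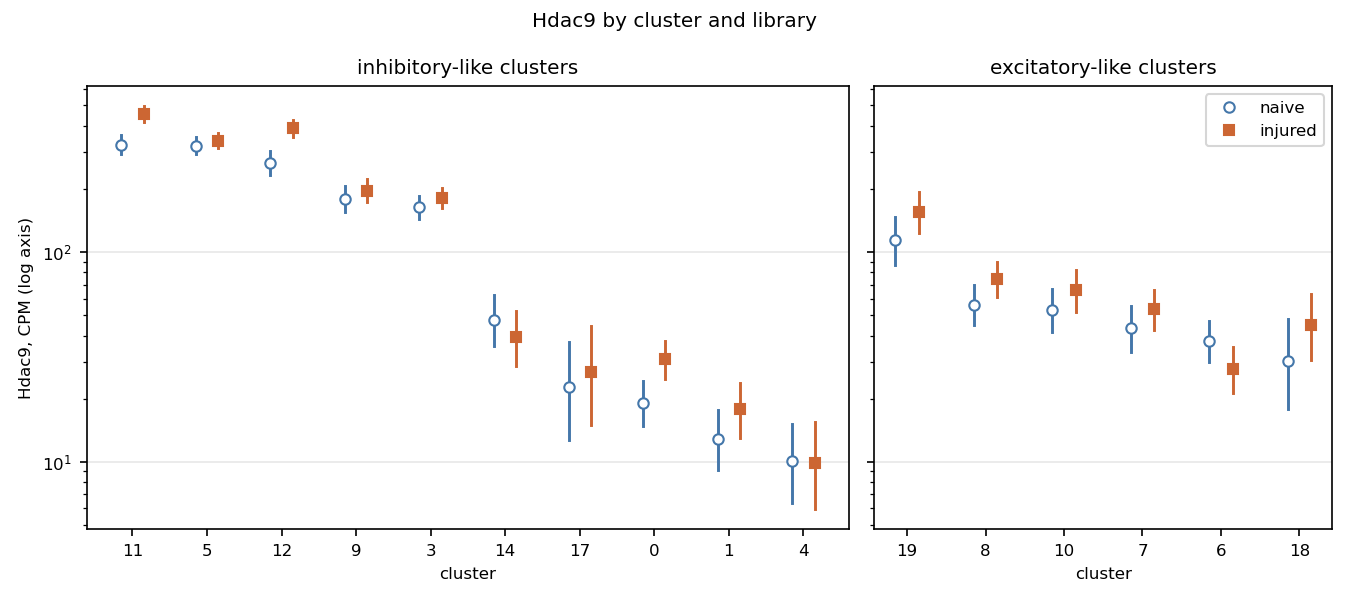
Hdac9 CPM (log axis) in each inhibitory-like and excitatory-like cluster with at least 50 nuclei per library, ordered by the naive level, with exact 95% counting intervals; open circles are naive and filled squares injured. Clusters 11, 5, 12, 9 and 3 stand above 160 CPM and the remaining inhibitory-like clusters below 50 CPM in both libraries, and intervals of the libraries are apart in clusters 11, 12 and 0.

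Other regulators varied less between inhibitory-like clusters. Leaving out Dnmt3b, their highest over lowest cluster ran from 1.35-fold (Kmt2c) to 2.80-fold (Ezh1) in the naive library. In the injured library it ran from 1.32-fold (Crebbp) to 3.26-fold (Dnmt1). For 15 of 31 regulators, Hdac9 included, the highest cluster was the same in both libraries, as it was for 36.2% of all genes. In excitatory-like clusters it was the same for 8 of 31, beside 36.5% of all genes. Tet2 was highest in cluster 1 (Pamr1, Nos1) at 91.6 and 92.2 CPM and lowest in cluster 12 at 37.6 and 36.9 CPM. Tet1 was highest in cluster 5 at 79.8 and 75.2 CPM and lowest in cluster 14 (Pax5, Rxfp2) at 34.1 and 36.7 CPM. Ezh2, a Polycomb H3K27 methyltransferase, was highest in cluster 3 at 60.3 and 64.4 CPM. Cluster 14 was highest in both libraries for Dnmt3a, Hdac3, Hdac6, Setd2 and Setd5, with Dnmt3a at 255 and 258 CPM.

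Hdac6, the class IIb enzyme that deacetylates tubulin and is likewise X-linked, was at 24.8 and 23.3 CPM in inhibitory-like nuclei and 25.3 and 25.7 CPM in excitatory-like nuclei, with intervals that held 1. Hdac11 was at 57.4 and 50.9 CPM in inhibitory-like nuclei, an injured over naive ratio of 0.887 (0.811 to 0.970), and at 70.2 and 66.5 CPM in excitatory-like nuclei, injured over naive 0.948 (0.843 to 1.07). It was lower in the injured library in all 10 inhibitory-like clusters with at least 50 nuclei per library. The share of all genes lower in all of them was not taken. Over the whole class 69.7% of all genes were lower. The log2 ratio of Hdac11 there was -0.17, beside a median of -0.14 for all genes of its length bin.

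Of the 4 genes of the H3K4 methyltransferase family, 2 had intervals that left out 1 in each class, Kmt2a and Kmt2e in inhibitory-like and Kmt2a and Kmt2d in excitatory-like nuclei. Kmt2d was at 24.7 CPM (201 UMIs) in naive and 17.0 CPM (147 UMIs) in injured excitatory-like nuclei, which put the ratio at 0.690 (0.554 to 0.857), and 1 of 6 excitatory-like clusters was higher in the injured library. With each nucleus thinned to 3000 UMIs the log2 ratio went from -0.54 to -0.17, within the mark of 0.32. In inhibitory-like nuclei Kmt2d was at 18.7 and 17.4 CPM, and its interval held 1. Kmt2a was lower in the injured library in both classes. It went from 333 to 304 CPM in inhibitory-like nuclei, an injured over naive ratio of 0.914 (0.881 to 0.948). In excitatory-like nuclei it went from 295 to 272 CPM, injured over naive 0.921 (0.870 to 0.976). These log2 ratios of -0.13 and -0.12 came closest to 0 at -0.05 after centring in inhibitory-like nuclei. In excitatory-like nuclei the closest was -0.02, with nuclei thinned to 3000 UMIs. Kmt2c, which pairs with UTX in complexes at enhancers, was at 227 and 233 CPM in inhibitory-like nuclei and 228 and 217 CPM in excitatory-like nuclei, and both intervals held 1.

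The remaining writers differed little. Ezh1, the Polycomb methyltransferase kept by mature neurons, was at 64.3 and 58.4 CPM in inhibitory-like nuclei, which put the ratio at 0.908 (0.835 to 0.987), and at 58.3 and 62.8 CPM in excitatory-like nuclei, an injured over naive ratio of 1.08 (0.951 to 1.22). Intervals held 1 in both classes for Ezh2, for the H3K36 methyltransferase Setd2 and its relative Setd5, for the H3K9 methyltransferases Ehmt1 and Ehmt2, and for the acetyltransferases Crebbp and Ep300. Crebbp, for example, was at 198 and 205 CPM in inhibitory-like nuclei and 199 and 194 CPM in excitatory-like nuclei.

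Among the demethylases, Kdm4c was higher in the injured library in both classes, from 185 to 197 CPM in inhibitory-like nuclei, injured over naive 1.06 (1.01 to 1.11), and from 185 to 201 CPM in excitatory-like nuclei, which put the ratio at 1.09 (1.02 to 1.17). Among excitatory-like nuclei with Y-linked and no Xist UMI the Kdm4c ratio was 0.986. Kdm6b, which removes methyl groups from H3K27, was at 26.6 and 22.9 CPM in inhibitory-like nuclei, an injured over naive ratio of 0.859 (0.752 to 0.981), and at 20.4 and 17.4 CPM in excitatory-like nuclei, where its interval held 1. Kdm2a, an H3K36 demethylase, was at 187 and 175 CPM in inhibitory-like nuclei, injured over naive 0.937 (0.893 to 0.984), and Kdm5a, an H3K4 demethylase, at 85.4 and 87.5 CPM with an interval that held 1.

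In inhibitory-like nuclei the ratios of the regulators followed gene length much as those of all genes did. The median log2 ratio of all genes there rose from -0.22 in the shortest of 5 length bins to 0.04 in the longest. The regulators in the 4 longer bins had medians of -0.14, -0.14, -0.07 and 0.04, beside -0.14, -0.09, -0.05 and 0.04 for all genes of those bins. Hdac9 and Hdac8, at 870 and 221 kb, were in the longest bin, and Hdac9 lay well above its median. In excitatory-like nuclei the medians of the regulators were -0.08, 0.10, -0.06 and 0.04 in those bins, beside -0.15, -0.09, -0.04 and 0.04 for all genes. There Kmt2d and Hdac3, at 39.5 and 19.2 kb, were in bins with medians of -0.09 and -0.15 and had log2 ratios of -0.54 and -0.32. The part of length in these ratios was not tested.

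**Figure D4:**
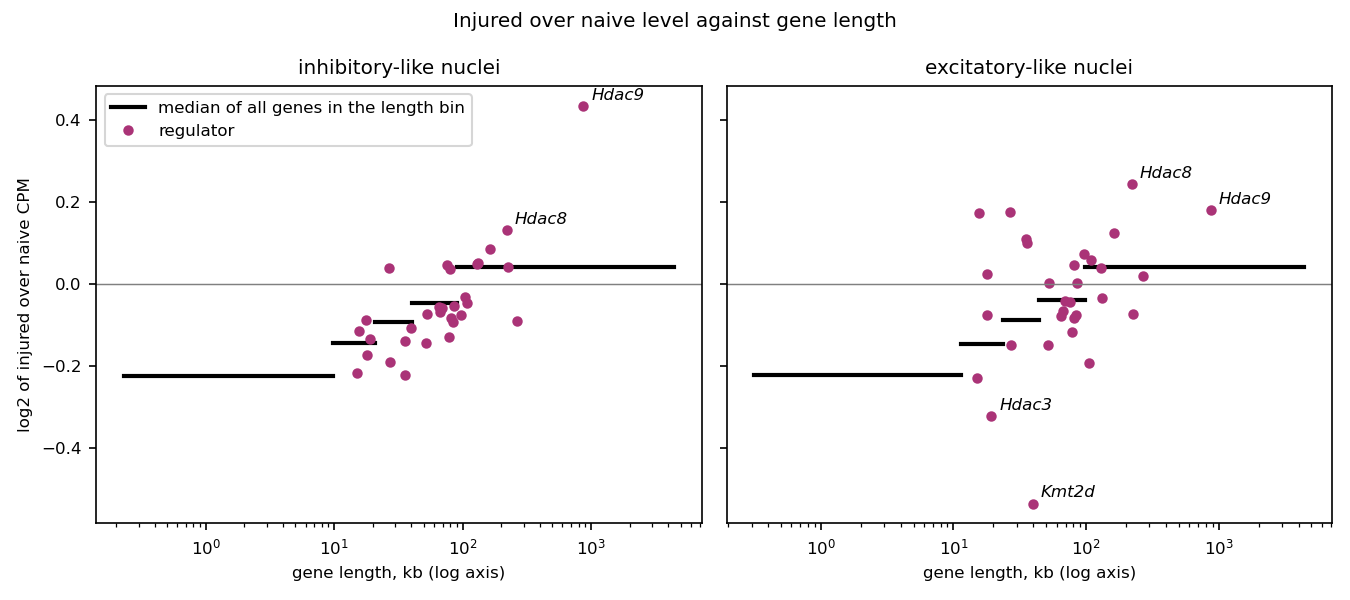
Log2 ratio of injured over naive CPM of 31 regulators (purple points) against gene length in kb (log axis), with black bars for the median of all genes in each of 5 length bins. The bars rise from -0.22 to 0.04 in both classes, most regulators lie near them, Hdac9 is far above in inhibitory-like nuclei, and Kmt2d is far below in excitatory-like nuclei.

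Excitatory-like and inhibitory-like nuclei carried similar levels of most regulators. Only Hdac9 of 31 was past 1.5-fold in both libraries, against 15.1% of 13699 genes (8.58% higher in excitatory-like and 6.56% in inhibitory-like nuclei), with excitatory-like over inhibitory-like ratios of 0.50 (0.45 to 0.56) and 0.42 (0.38 to 0.46). Smaller differences had intervals that left out 1 in both libraries. Dnmt3a, Tet1, Hdac8, Hdac11 and Setd5 were higher in excitatory-like nuclei (17.8% of all genes), and Hdac7, Hdac9, Kmt2a and Kdm6b were lower (13% of all genes). Hdac8 was 1.27-fold and 1.37-fold higher and Hdac11 1.22-fold and 1.31-fold higher, while Hdac7 had ratios of 0.79 and 0.79 and Kdm6b 0.77 and 0.76.

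The glia-like nuclei were few, so levels there carry wide intervals. Hdac8 was the clear exception. Its astrocyte-like level reached 486 CPM (377 to 616, 68 UMIs) in naive and 521 CPM (437 to 617, 134 UMIs) in injured nuclei. These were 3.32-fold (2.57 to 4.23) and 3.26-fold (2.72 to 3.87) the inhibitory-like level. In oligodendrocyte-like nuclei Hdac8 was at 134 and 188 CPM, with intervals that held the inhibitory-like level. Thinned to 1500 UMIs, 46.7% (31.7% to 62.1%) and 48.9% (34.1% to 63.9%) of astrocyte-like nuclei had a Hdac8 UMI, against 18.8% and 20.2% of inhibitory-like nuclei. Setd2 was also higher in astrocyte-like nuclei in both libraries, at 193 and 179 CPM against 120 and 116 CPM. These were 2 of 31 regulators, and none was lower in both, where 8.25% of 12830 genes were higher and 6.41% lower by the same rule.

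In oligodendrocyte-like nuclei 2 of 31 regulators were lower in both libraries and none higher, against 9.55% of 12790 genes lower and 7.16% higher. Hdac4 was at 28.8 CPM (3 UMIs) and 50.5 CPM (7 UMIs) against 139 and 131 CPM in inhibitory-like nuclei, oligodendrocyte-like over inhibitory-like 0.207 (0.043 to 0.607) and 0.387 (0.155 to 0.798). Kmt2a was at 125 and 188 CPM against 333 and 304 CPM. The inhibitory transmitter genes, as a measure of neuronal RNA in these nuclei, stood at 6.37% and 4.97% of their inhibitory-like level in oligodendrocyte-like nuclei, and at 23.7% and 29.4% in astrocyte-like nuclei. Hdac9 in astrocyte-like nuclei, with 3 and 24 UMIs, stood at 21.4 (4.42 to 62.6) CPM in the naive and 93.3 (59.8 to 139) CPM in the injured library. These intervals overlapped from 59.8 to 62.6 CPM. Thinned to 1500 UMIs, a Hdac9 UMI was found in 2 of 45 naive and 2 of 47 injured astrocyte-like nuclei, 4.44% and 4.26%. No interval of the injured over naive ratio was taken in glia-like nuclei, so the overlap is read neither as a difference nor as a lack of it. The part of neuronal RNA in the glia-like levels was not tested.

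CSF-contacting neuron-like nuclei, 106 naive and 48 injured, carried more of 3 regulators than inhibitory-like nuclei in both libraries and less of none (all genes, 7.83% higher and 7.05% lower). Kmt2c was at 325 and 336 CPM, a ratio to inhibitory-like nuclei of 1.43 (1.23 to 1.66) and 1.44 (1.18 to 1.75). Crebbp was at 249 and 289 CPM and Hdac11 at 79.9 and 94.2 CPM.

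**Figure D5:**
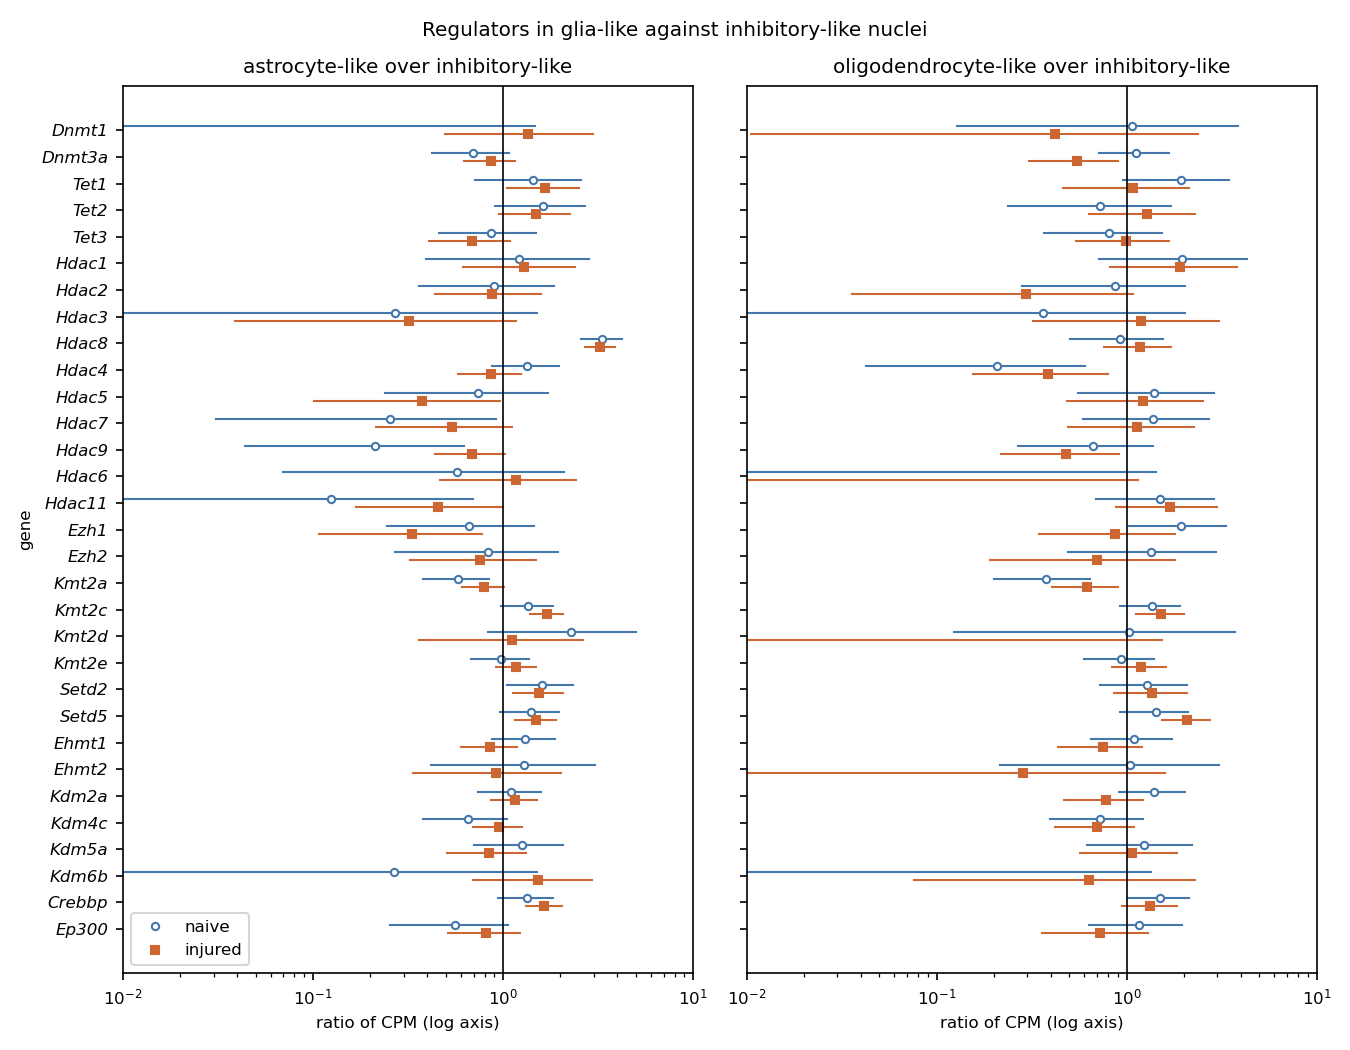
Ratio of CPM in astrocyte-like and in oligodendrocyte-like nuclei to CPM in inhibitory-like nuclei of the same library (log axis) for 31 regulators, with exact 95% counting intervals cut off at the left edge; open circles are naive and filled squares injured, and a gene with 0 UMIs has a line and no point. Hdac8 lies above 3-fold in astrocyte-like nuclei in both libraries, and Hdac4 lies below 1 in oligodendrocyte-like nuclei in both.

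Partner genes of the same pathways were read from 8 lists of 139 genes, of which 134 were in the table and 129 and 123 had at least 100 UMIs in inhibitory-like and excitatory-like nuclei. Their median log2 ratios were -0.06 and -0.05, and past the mark of 0.32 were 1 higher and 8 lower in inhibitory-like nuclei, and 1 higher and 11 lower in excitatory-like nuclei. Of all genes, 1.98% were higher and 12.5% lower by that mark in inhibitory-like nuclei and 1.92% and 13.8% in excitatory-like nuclei. Mbd5, named for a methyl-binding domain, had the highest injured over naive ratio in the list of methylation readers and repair genes in both classes. It went from 437 to 487 CPM in inhibitory-like nuclei, which put the ratio at 1.12 (1.08 to 1.15). In excitatory-like nuclei it went from 466 to 521 CPM, a ratio of 1.12 (1.07 to 1.17). Gadd45g, linked to active demethylation, was among the genes with the lowest ratios in both classes. It went from 9.08 to 6.33 CPM in inhibitory-like nuclei, injured over naive 0.698 (0.545 to 0.890). In excitatory-like nuclei it went from 16.7 to 10.8 CPM, which put the ratio at 0.645 (0.490 to 0.846).

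Of the deacetylase corepressor genes, Rcor2, a CoREST subunit, was the lowest in both classes, at ratios of 0.709 (0.569 to 0.882) and 0.647 (0.435 to 0.956), and Mta3, a NuRD subunit, was among the highest, at 1.14 (1.05 to 1.22) and 1.12 (1.02 to 1.23). Chd7, a chromatin remodeller, was the 1 pathway gene past that mark in the higher direction in inhibitory-like nuclei, from 11.1 to 14.7 CPM, an injured over naive ratio of 1.33 (1.10 to 1.60). The Polycomb gene Pcgf5 was the one in excitatory-like nuclei, from 38.4 to 48.5 CPM, injured over naive 1.26 (1.09 to 1.47). Setd1b, another H3K4 methyltransferase, was at 22.4 and 14.8 CPM in excitatory-like nuclei, which put the ratio at 0.663 (0.525 to 0.836). Setd1a, likewise an H3K4 methyltransferase, had the highest ratio of the same list there, 1.20 (0.850 to 1.69) on 63 and 80 UMIs.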

How the data were processed

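Single-nucleus 3′ libraries were made with 10x Genomics chemistry, and the submitters' processing notes name Cell Ranger 3.0.2, Seurat and mm10; which annotation, intron and strand settings were used, and whether doublets were removed, is not given in the sources used here. Raw UMI counts per gene and nucleus were deposited by the authors, as were normalized values that equal the natural log of 1 plus the count per 10000 UMIs. The normalized values were used to assign nuclei to libraries, since the suffix of a barcode does not name its sample. They also gave the levels in the alternative with every nucleus given the same weight. Counts were summed per class and library and scaled to CPM. Clustering used scanpy 1.11.5 (2000 variable genes, 30 components, resolution 1) with the 32 genes and others, 168 in all, kept out of the variable genes, and classes were named from marker genes; no doublet caller was run. Levels have exact Poisson intervals, shares Clopper-Pearson intervals and ratios exact conditional binomial intervals (95%, scipy 1.17.1). Only the ratio intervals were checked on simulated data, drawn as Poisson counts for the inhibitory-like class. The simulation had no further spread between nuclei or mice, so it cannot show how the intervals hold under such spread. Over a whole library, 0 UMIs allow up to 0.098 CPM (naive) or 0.091 CPM (injured). Genes needed 100 UMIs in a class. Positions and lengths came from GENCODE M21 on GRCm38. Of the 32 genes, 14 overlap another gene, all on the opposite strand.

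All 32 genes may be named; full values were set for those past a log2 ratio of 0.32 between libraries or 1.5-fold between classes and for the methyltransferase, TET and class IIa groups, and the 2 highest and 2 lowest of each pathway list. The genes, lists and rules were chosen with earlier results of these data known. Alternatives changed the scaling, UMI minimum, depth, nuclei and class definition. The alternative that gave clusters the same weight used only clusters with at least 20 nuclei per library.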

Additional observations from a re-analysis of the deposited data

How the results depend on the processing

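Over 11 alternatives, 630 of 678 recomputed log2 ratios stayed within the counting interval of the reported value. The 630 include those of the alternatives that changed only the UMI minimum, to 300 or to 1. Those log2 ratios equal the reported ones by construction. Of the rest, 45 moved outside it, and 3 changed sign where that interval had left out 0. Most regulators lay close to 0, and 38 of their 62 log2 ratios changed sign under at least 1 alternative, 59 times in all, most often with centring (15) and thinning (14). Centring on the median of all genes, by 0.08 in both classes, put the regulators' median log2 ratio at 0.01 in inhibitory-like and 0.04 in excitatory-like nuclei and left 1 excitatory-like regulator past a log2 ratio of 0.32, Kmt2d. The inhibitory-like count of 1 became 2 with nuclei thinned to 3000 UMIs (with Kmt2d), 2 at a minimum of 1 UMI (with Dnmt3b), 3 in nuclei with Y-linked and no Xist UMI (with Hdac11 and Kdm6b) and 0 with clusters given the same weight. The excitatory-like count of 2 became 1 with every nucleus given the same weight (Kmt2d) and 1 with thinning (Hdac3), and 3 in nuclei with Y-linked and no Xist UMI (Tet1, Hdac3, Hdac9), 3 with classes from each nucleus's own transmitter genes (with Ehmt2) and 3 at a minimum of 1 UMI (with Dnmt3b). Among ratios whose interval had left out 1, the sign changed for Kmt2e in inhibitory-like nuclei, 0.023 centred and 0.035 thinned, and for Kdm4c in excitatory-like nuclei, -0.021 in nuclei with Y-linked and no Xist UMI. Hdac9 in inhibitory-like nuclei ranged from 0.28 (clusters given the same weight) to 0.56 (Y-linked and no Xist UMI), Hdac3 in excitatory-like nuclei from -0.47 to -0.25, and Kmt2d there from -0.61 to -0.17, the last with thinning. Other than by each alternative's own construction, the cause was not tested. Under all 11, Hdac9 was the 1 regulator past 1.5-fold between the neuron classes in both libraries. No paired analysis was possible because each group is 1 library and the labels carry no replicate numbers. Depth limited Dnmt3b and all glia-like values.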

Other observations

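Hdac9 was also read in nuclei outside the main classes' large clusters. Cluster 23, inhibitory-like nuclei led by Cartpt and Alk, had 353 CPM (255 to 475) in 19 naive and 300 CPM (242 to 368) in 40 injured nuclei, among the highest levels of any cluster. Cluster 15, unnamed nuclei with high inhibitory transmitter genes, had 64.4 CPM (50.2 to 81.4) and 64.1 CPM (48.7 to 82.9). CSF-contacting neuron-like nuclei had 153 CPM (122 to 189) in the naive and 113 CPM (79.2 to 157) in the injured library, with intervals that overlapped. No interval of the ratio between the libraries was taken in those nuclei.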
